A study of Rattus norvegicus with 16 samples.

Results

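Endoplasmic reticulum (ER) chaperones and genes of the unfolded protein response were examined in rat PCCl3 thyroid cells in which *Pax8* had been silenced. The 10 genes were *Hspa5*, *Calr*, *Canx*, *Pdia3*, *Pdia4*, *Xbp1*, *Atf4*, *Ddit3*, *Herpud1* and *Trib3*, and their probes were found through the RefSeq accession that the array gives for each probe. This named 10 of the 41012 probes of the array, which stood for 9 of the 10 genes: *Herpud1* had 2 probes, the others had 1 each, and no probe was named *Xbp1*. Against wild type cells, *Ddit3* rose 2.54-fold and *Trib3* 1.51-fold when *Pax8* was silenced, while *Hspa5*, *Pdia3* and *Herpud1* fell. Against cells that received a scrambled siRNA, *Ddit3* rose 1.31-fold, and *Hspa5* and *Pdia4* fell to 76.4% and 80.9% of the control.

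PCCl3 cells are rat thyroid follicular cells in permanent culture that keep a differentiated state. RNA of cells that had received a *Pax8* siRNA (si*Pax8*) was hybridized to 2-colour Agilent rat arrays in competition either with RNA of wild type cells (wt) or with RNA of cells given a scrambled siRNA (siScramble). Cells of all 3 conditions grew in the same medium with donor calf serum, thyrotropin (TSH), insulin, somatostatin, transferrin, hydrocortisone and a glycyl-histidyl-lysine tripeptide, the siRNAs were used at 10 ng/ml, and RNA was taken 48 hours after transfection. Each comparison had 4 biological replicates on 8 arrays, so that each replicate was measured once with the si*Pax8* RNA in Cy5 and once with it in Cy3. The control without siRNA is wild type by the labels, whereas the study's methods list it as treated with the transfection reagent. Effects of siRNA delivery as such and of losing *Pax8* cannot be told apart against wt. By the study's scheme of the hybridizations, 1 set of si*Pax8* samples served both comparisons, which are therefore not independent. Silencing was by transient transfection of a single cell line.

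All values below are log2 ratios of si*Pax8* over control, so that a negative value means less RNA in the silenced cells. Each is the mean of the 4 replicates, after the dye-swapped arrays of a replicate were averaged, with its standard deviation between replicates (SD). A probe was called higher or lower when its adjusted p (limma, Benjamini-Hochberg over all 41012 probes) was below 0.005, which is the threshold of the study. The share of spots well above background was 54% to 60.8% per array in Cy3 and 52% to 59.1% in Cy5. All 10 probes were well above background in both channels of all 16 arrays, none was saturated, and none of their spots was marked as an outlier. Of 12 thyroid follicular genes, 10 had a named probe, and these 10 were above background on all 16 arrays. Of the fibroblast markers 3 of the 4 measured, and of the endothelial markers both of the 2 measured, were above background on none. *Pax8* itself fell against wt in every replicate, by -0.84, -0.57, -0.59 and -0.26 (-0.56 ± 0.24, or 67.7% of the control, adjusted p = 0.000472). Against siScramble it was -0.58, -0.29, -0.12 and -0.01 (-0.25 ± 0.25, adjusted p = 0.143), which did not pass the threshold. These are RNA values of 1 probe. The study tested silencing at the protein level by immunoblot, reported less Pax8 than in both controls, and chose 48 hours as the best time.

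The ER is where secreted and membrane proteins fold, among them thyroglobulin, the large glycoprotein on which thyroid hormone is made. *Hspa5* encodes BiP, the ER chaperone of the heat shock protein family that also holds the stress sensors inactive. *Calr* and *Canx* encode the lectin chaperones calreticulin and calnexin, which retain glycoproteins until they are folded, and *Pdia3* and *Pdia4* encode disulfide isomerases of the ER lumen. When unfolded proteins accumulate, the sensors Ire1, Perk and Atf6 signal to the nucleus. Ire1 leads to the spliced form of the transcription factor Xbp1, Atf6 is itself cleaved to a transcription factor, and Perk phosphorylates the translation factor eIF2α, upon which *Atf4* mRNA is translated more. Atf4 activates *Ddit3*, which encodes the transcription factor Chop, and *Trib3*, which encodes a pseudokinase that binds Atf4 and Chop. Other eIF2α kinases, which respond to double-stranded RNA, to lack of amino acids or to lack of haem, also act through Atf4. *Herpud1* encodes an ER membrane protein of the pathway that takes misfolded proteins to degradation.

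The promoters of these genes are known for short elements that carry the response, and the 250 bases before the RefSeq start site were searched for them on both strands in the build GRCr8. The ER stress response element (ERSE) was searched as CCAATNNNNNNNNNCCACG, the related ERSE-II as ATTGGNCCACG, and the C/EBP-Atf response element (CARE) that Atf4 binds as TGATGNAA. RefSeq promoters were found for 9 of the 10 genes, all but *Pdia3*. Of these 9, *Hspa5*, *Calr*, *Canx* and *Xbp1* held an ERSE, against 22 of the 33469 rat promoters in all (0.0657%). The 4 matches are shown in the orientation of the motif, 5′ to 3′, because so few rat promoters hold one, with the fixed letters of the motif in capitals.
Hspa5 (GRCr8 chr3:38452973-38452991, gene on the plus strand): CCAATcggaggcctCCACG
Calr (GRCr8 chr19:40213135-40213153, gene on the plus strand): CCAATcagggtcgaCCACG
Canx (GRCr8 chr10:35158069-35158087, gene on the minus strand): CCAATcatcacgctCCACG
Xbp1 (GRCr8 chr14:84604558-84604576, gene on the plus strand): CCAATcgcagacggCCACG
The match of *Hspa5* began 43 bases before the start site, that of *Xbp1* 65, that of *Canx* 230 and that of *Calr* 232, the last on the opposite strand. *Herpud1* held an ERSE-II, which 14 of the 33469 promoters held (0.0418%), and, not overlapping it, a CARE on the opposite strand. *Trib3* held a CARE, also on the opposite strand, and 1139 promoters held one in this window (3.4%). The windows of *Ddit3*, *Atf4* and *Pdia4* held none of the 3 motifs, which says only that these letters are not there. The whole 250 bases are printed for *Hspa5*, *Herpud1*, *Trib3* and *Ddit3*, since the largest falls and rises described below include these genes. The sequences are on the strand of the gene, and the capitals mark the fixed letters of each match, read on either strand.
Hspa5 (GRCr8 chr3:38452766-38453015, plus strand): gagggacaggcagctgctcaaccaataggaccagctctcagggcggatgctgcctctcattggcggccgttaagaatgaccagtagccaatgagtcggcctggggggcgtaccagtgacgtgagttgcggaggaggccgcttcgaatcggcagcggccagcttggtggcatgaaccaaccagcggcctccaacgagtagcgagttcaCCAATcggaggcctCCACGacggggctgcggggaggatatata
Herpud1 (GRCr8 chr19:10614708-10614957, minus strand): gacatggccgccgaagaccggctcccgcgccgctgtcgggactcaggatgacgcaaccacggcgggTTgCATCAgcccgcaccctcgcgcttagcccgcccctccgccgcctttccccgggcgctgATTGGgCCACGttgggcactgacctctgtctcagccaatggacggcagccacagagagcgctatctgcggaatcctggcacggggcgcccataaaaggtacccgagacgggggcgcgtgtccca
Trib3 (GRCr8 chr3:161275534-161275783, minus strand): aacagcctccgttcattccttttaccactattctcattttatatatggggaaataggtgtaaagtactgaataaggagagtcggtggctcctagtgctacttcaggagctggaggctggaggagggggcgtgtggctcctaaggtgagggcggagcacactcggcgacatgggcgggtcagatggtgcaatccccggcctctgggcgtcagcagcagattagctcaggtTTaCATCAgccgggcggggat
Ddit3 (GRCr8 chr7:65001445-65001694, plus strand): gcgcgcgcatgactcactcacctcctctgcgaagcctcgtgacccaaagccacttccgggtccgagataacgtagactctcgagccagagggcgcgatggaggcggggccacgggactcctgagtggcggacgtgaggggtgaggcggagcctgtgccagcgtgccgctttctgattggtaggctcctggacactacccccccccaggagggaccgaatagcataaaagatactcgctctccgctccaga

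**Figure D1:**
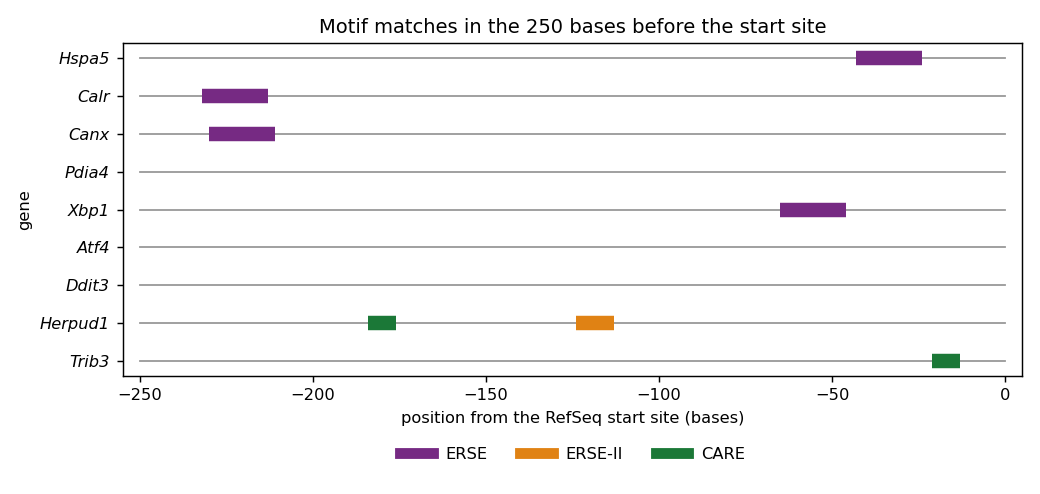
Positions of the ERSE, ERSE-II and CARE matches in the 250 bases before the RefSeq start site of the 9 genes with a promoter sequence; the horizontal axis is the distance from the start site in bases, and each coloured block is 1 match on either strand. The ERSE of *Hspa5* and that of *Xbp1* lie within 65 bases of the start site, those of *Calr* and *Canx* begin 232 and 230 bases before it, and the lines of *Pdia4*, *Atf4* and *Ddit3* are empty.

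Against wt cells, 2 of the 10 probes were higher (*Ddit3* and *Trib3*), where 7.04% of all probes were, and 4 were lower (*Hspa5*, *Pdia3* and both probes of *Herpud1*), where 8.23% were. Against siScramble cells, 1 of the 10 probes was higher (*Ddit3*), where 1.22% of all probes were, and 2 were lower (*Hspa5* and *Pdia4*), where 0.897% were. Counted by gene, a gene being called when each of its probes is, 2 of 9 genes were higher and 3 lower against wt, and the same counts over all 8899 named genes came to 7.26% and 9.46%. Against siScramble 1 of 9 genes was higher and 2 lower, with 1.67% and 1.31% over all named genes. With only probes well above background kept, 2 of the 10 member probes were higher and 3 lower against wt, where 2771 and 3264 of 22635 probes were. Against siScramble 1 was higher and 2 lower under this filter, where 462 and 286 of 22692 probes were. The median of the 9 genes was -0.17 ± 0.11 against wt (SD of the replicate medians) and -0.12 ± 0.01 against siScramble, beside medians of -0.01 and 0.00 over all named genes. Most fits without 1 of the replicates gave fewer calls over the whole array. The exception was the fit against wt without replicate 1, where 17% of all probes were called, beside 15.3% with all replicates. Against wt, 0 of the 10 probes were called lower without replicate 3 (limma, with 7 of 10 at an unadjusted p below 0.05 in either direction) and 1 without replicate 2 or without replicate 4, while the calls over all probes in both directions went from 15.3% to 8.23%, 9.93% and 9.82%. The means without replicate 3 were still below 0, with -0.21 for *Hspa5*, -0.36 for *Pdia3*, and -0.17 (A_44_P1047924) and -0.32 (A_44_P137356) for *Herpud1*. Against siScramble 0 probes were called in either direction without replicate 2 (6 of 10 at an unadjusted p below 0.05), 0 were higher and 1 lower without replicate 3, and 1 was lower without replicate 1, while the calls over all probes went from 2.11% to 0.29%, 0.522% and 0.922%.

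**Figure D2:**
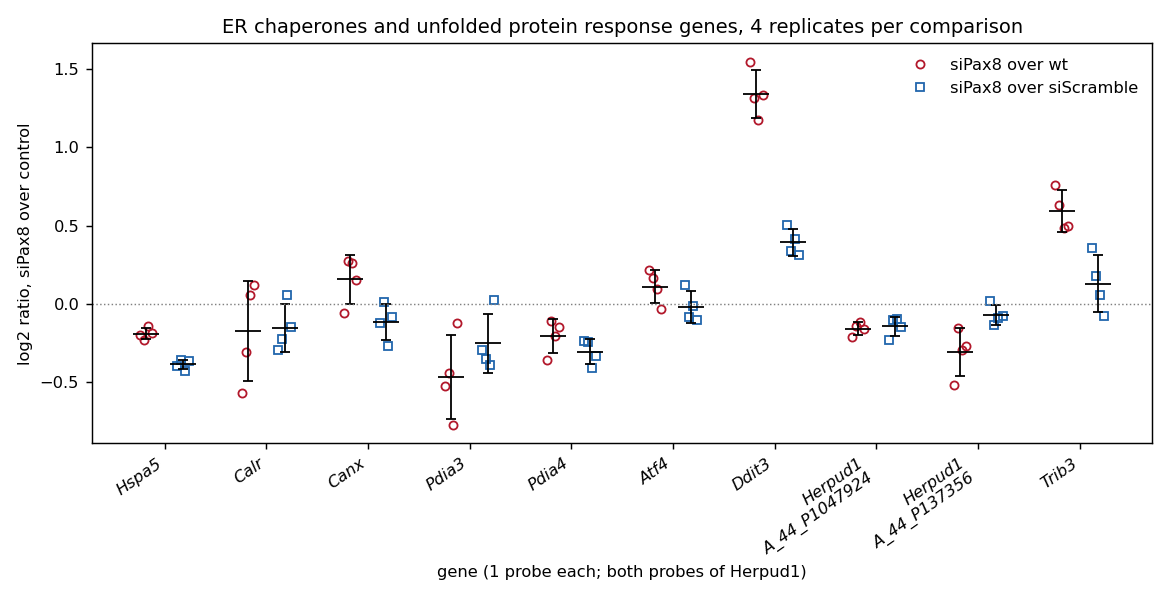
Log2 ratio of si*Pax8* over wt (red circles) and over siScramble (blue squares) for each probe of the 9 genes; points are replicates 1 to 4 from left to right, the horizontal bar is their mean and the error bar 1 SD. The 4 *Ddit3* replicates against wt lie between 1.18 and 1.55, above those of every other probe, and the 4 *Hspa5* replicates against siScramble lie between -0.43 and -0.36.

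*Hspa5*, the gene of BiP, fell in both comparisons, in every replicate. Against wt, its probe (A_44_P1054213) measured -0.20, -0.23, -0.14 and -0.19 in replicates 1 to 4, a mean of -0.19 ± 0.04 or 87.6% of the control (adjusted p = 0.0012). Against siScramble it measured -0.40, -0.36, -0.43 and -0.36, a mean of -0.39 ± 0.03 or 76.4% of the control (adjusted p = 0.000401). All 8 replicate values were below 0, and the groups of 4 did not overlap between the comparisons. The share of all probes with such a separation was not computed. The difference of 0.20 between them (95% confidence interval 0.12 to 0.28) had an adjusted p of 0.00528 and did not pass the threshold. The size of the fall moved with the dye. Against wt it was -0.34 with the si*Pax8* RNA in Cy5 and -0.04 with it in Cy3 (adjusted p = 0.586), and against siScramble -0.54 and -0.24. Without replicate 2, the adjusted p against siScramble was 0.0062, and without replicates 2, 3 or 4 the call against wt was lost.

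The lectin chaperones showed no call by their named probes. *Calr*, the soluble lectin chaperone, measured -0.57, -0.31, 0.06 and 0.12 against wt (-0.17 ± 0.32, adjusted p = 0.271) and -0.29, -0.23, 0.06 and -0.15 against siScramble (-0.15 ± 0.15, adjusted p = 0.163). Replicates 1 and 2 were low and the remaining replicates were near 0 or above it against wt, so the spread exceeded the mean. Another probe that the study's own probe list names *Calr* (A_44_P179622) fell against siScramble in all 4 replicates, by -0.30, -0.30, -0.22 and -0.30 (-0.28 ± 0.04, adjusted p = 0.00169). Against wt it was -0.14 ± 0.20 (adjusted p = 0.149). *Canx*, the membrane-bound lectin chaperone, measured -0.06, 0.28, 0.26 and 0.15 against wt (0.16 ± 0.15, adjusted p = 0.0594). Against siScramble it measured -0.12, 0.01, -0.27 and -0.09 (-0.12 ± 0.12, adjusted p = 0.197). Its mean was thus above 0 in one comparison and below 0 in the other, neither passed the threshold, and the difference of 0.27 (95% confidence interval 0.10 to 0.45) had an adjusted p of 0.0515. Without replicate 1, *Canx* passed the threshold as higher against wt (0.23, adjusted p = 0.000989).

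Both disulfide isomerase genes had means below 0 in both comparisons, and each passed the threshold in 1 of them. *Pdia3*, whose product works on glycoproteins held by the lectin chaperones, fell against wt by -0.53, -0.44, -0.78 and -0.13 (-0.47 ± 0.27, or 72.3% of the control, adjusted p = 0.00261). Against siScramble it measured -0.29, -0.35, -0.39 and 0.03 (-0.25 ± 0.19, adjusted p = 0.0665). Replicate 4 was the one nearest 0 in both comparisons, and without it *Pdia3* passed the threshold against siScramble too (-0.35, adjusted p = 0.00399). Against wt, the call was lost without replicate 2 (adjusted p = 0.0161) and without replicate 3 (adjusted p = 0.0116). *Pdia4* measured -0.36, -0.11, -0.20 and -0.15 against wt (-0.21 ± 0.11, adjusted p = 0.00566), just outside the threshold. Against siScramble it fell by -0.23, -0.25, -0.41 and -0.33 (-0.30 ± 0.08, or 80.9% of the control, adjusted p = 0.00362), just inside it. All 8 replicate values of *Pdia4* were below 0 and the comparisons overlapped, with a difference of 0.10 (95% confidence interval -0.03 to 0.23). The call against siScramble was lost without any 1 of the replicates, with adjusted p between 0.0088 and 0.0214. By dye, *Pdia3* against wt was -0.49 with si*Pax8* in Cy5 (adjusted p = 0.000947) and -0.45 in Cy3 (0.0152). With si*Pax8* in Cy3, *Pdia3* was also called against siScramble. In the same order of dyes, *Pdia4* was -0.22 (0.000755) and -0.19 (0.219) against wt, and -0.41 and -0.20 against siScramble.

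*Ddit3* rose in every replicate of both comparisons and had the largest change of the members against wt. Its probe (A_44_P445344) measured 1.55, 1.32, 1.18 and 1.34 against wt, a mean of 1.34 ± 0.15 or 2.54-fold (95% confidence interval 1.23 to 1.46, adjusted p = 4.24e-07). Against siScramble it measured 0.50, 0.34, 0.41 and 0.32, a mean of 0.39 ± 0.08 or 1.31-fold (0.31 to 0.48, adjusted p = 0.00142). The lowest value against wt, 1.18, was above the highest against siScramble, 0.50, and the difference of 0.95 (95% confidence interval 0.79 to 1.11) passed the threshold (adjusted p = 2.55e-05). It was the only member probe whose difference did, beside 3.44% of all probes. The share of all probes whose replicate values do not overlap between the comparisons was not computed. The dye made little difference: against wt the rise was 1.32 with the si*Pax8* RNA in Cy5 and 1.37 with it in Cy3, and against siScramble 0.38 and 0.40. Means within each of the 4 slides lay between 1.22 and 1.45 against wt, and between 0.37 and 0.44 against siScramble. The call against wt was kept under all 17 alternative settings, whereas against siScramble it was lost without replicate 2 (adjusted p = 0.0131) and without replicate 3 (adjusted p = 0.0133).

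*Atf4*, whose product activates *Ddit3* and *Trib3*, showed no call. Its probe measured 0.21, 0.16, 0.10 and -0.03 against wt (0.11 ± 0.11, adjusted p = 0.0876) and 0.12, -0.08, -0.02 and -0.10 against siScramble (-0.02 ± 0.10, adjusted p = 0.873). The 95% confidence intervals of these means, 0.02 to 0.20 and -0.12 to 0.08, lay below the *Ddit3* means of 1.34 and 0.39. These intervals cover the spread between dye-averaged replicates of 1 probe and not its dye effect. The dye moved *Atf4* more than the condition did, with -0.12 in Cy5 and 0.34 in Cy3 against wt and -0.23 and 0.19 against siScramble. Since Atf4 and the spliced form of Xbp1 are set by translation and splicing, an array of this kind does not measure their activity. *Xbp1* had no named probe and was not analysed here.

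*Trib3* rose against wt and not, by the threshold, against siScramble. Its probe measured 0.76, 0.63, 0.48 and 0.50 against wt (0.59 ± 0.13, or 1.51-fold, adjusted p = 2.48e-05), and 0.36, 0.18, 0.06 and -0.08 against siScramble (0.13 ± 0.18, adjusted p = 0.337). The groups did not overlap, since the lowest value against wt, 0.48, was above the highest against siScramble, 0.36, and here too the share of all such probes was not computed. The difference of 0.46 (95% confidence interval 0.27 to 0.66) had an adjusted p of 0.0079 and missed the threshold. With the replicate number as a block its adjusted p was 9.31e-05, and without replicate 1 it was 0.00278, both past it. The rise against wt was 0.55 to 0.67 within the 4 slides, and 0.70 with si*Pax8* in Cy5 and 0.49 with it in Cy3.

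*Herpud1* fell against wt by both of its probes. Probe A_44_P1047924 measured -0.21, -0.14, -0.12 and -0.16 (-0.16 ± 0.04, adjusted p = 0.00377), and probe A_44_P137356 measured -0.52, -0.15, -0.30 and -0.27 (-0.31 ± 0.15, adjusted p = 0.00199). Against siScramble the first was -0.14 ± 0.06 (adjusted p = 0.0333) and the second -0.07 ± 0.06 (adjusted p = 0.272). The first probe depended on the dye, with -0.03 against wt when si*Pax8* was in Cy5 and -0.29 when it was in Cy3, and its call against wt was lost without any 1 of the replicates, with adjusted p between 0.00793 and 0.0212. The second probe was called against wt with si*Pax8* in Cy5 (-0.21, adjusted p = 0.000886) and not with it in Cy3 (-0.42, adjusted p = 0.0108).

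**Figure D3:**
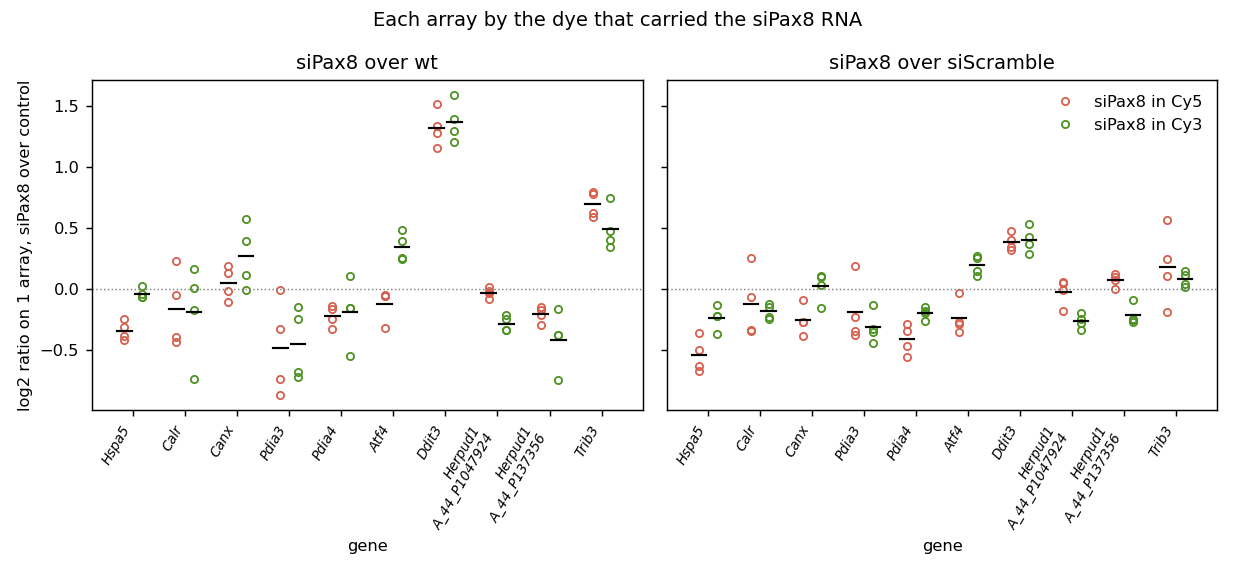
Log2 ratio of si*Pax8* over wt (left) and over siScramble (right) on each single array, with the si*Pax8* RNA in Cy5 (red) or in Cy3 (green); the bar is the mean of the 4 arrays of an orientation. *Ddit3* has nearly the same mean in both orientations (1.32 and 1.37 against wt), whereas *Hspa5* lies lower with si*Pax8* in Cy5 and *Atf4*, *Canx* and *Herpud1* lie on different sides or at different distances from 0 by the dye.

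Side by side, the 5 folding genes (*Hspa5*, *Calr*, *Canx*, *Pdia3* and *Pdia4*) had no upward call in either comparison, and *Canx* against wt had the only mean above 0 among them. *Atf4*, *Ddit3* and *Trib3* had means between 0.11 and 1.34 against wt and between -0.02 and 0.39 against siScramble, and both probes of *Herpud1* had means below 0 in both. This grouping was made with the values known and was not tested. Of the 4 members with an ERSE in the window, *Xbp1* was not measured, *Hspa5* was called by its RefSeq-named probe and *Calr* and *Canx* were not. *Ddit3* held none of the 3 motifs there.

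The wider pathway was read from lists of 170 further genes, of which 103 had a named probe. A gene was counted as called, or as having an unadjusted p below 0.05, only when each of its probes did so in 1 direction, so a gene whose probes disagree is in no count. Against wt 10 of the 103 were higher and 20 lower, with a median of -0.07, where 7.26% and 9.46% of all named genes were. Against siScramble none was higher and 6 were lower, with a median of -0.07, where 1.67% and 1.31% of all named genes were. Of the 103, 101 were above background on all 16 arrays. With only probes well above background kept, 2771 and 3264 of 22635 probes were higher and lower against wt, and 462 and 286 of 22692 against siScramble. The pathway genes were not recounted under this filter. At an unadjusted p below 0.05, 14 of the 103 were higher and 38 lower against siScramble. The share of all named genes at that unadjusted p was not computed, so such counts, here and elsewhere, have no background beside them. Without replicate 3 or without replicate 4, 13 were lower against wt, and leaving out a replicate left 0 (without replicate 2) to 2 lower against siScramble. Among the disulfide and prolyl isomerases 2 of 13 were higher and 5 lower against wt, and 3 were lower against siScramble. *Pdia5*, a disulfide isomerase, fell by -0.36 ± 0.03 against wt (adjusted p = 2.8e-05) and by -0.44 ± 0.04 against siScramble (adjusted p = 0.000336). *Pdia6*, another isomerase, fell by -0.22 ± 0.05 and -0.38 ± 0.05 (adjusted p = 0.000757 and 0.000739). *Fkbp11*, a prolyl isomerase of secretory cells, fell by -0.58 ± 0.05 and -0.29 ± 0.08 (adjusted p = 2.67e-06 and 0.00392), and this difference passed the threshold (adjusted p = 0.00281). *Qsox1*, a sulfhydryl oxidase, rose against wt (0.23 ± 0.03, larger adjusted p of its 2 probes 0.00194).

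Of 9 other ER chaperones and co-chaperones none was higher by all of its probes (nor at an unadjusted p below 0.05), 2 were lower against wt and 1 against siScramble. Over all named genes, 7.26% were higher and 9.46% lower against wt, and 1.67% and 1.31% against siScramble. The counts of 1 of 13 and 1 of 10 lower against wt given below lie near that share. Of the 2 *Dnajb9* probes, A_44_P264777 was 0.15 against wt with an adjusted p of 0.00567 and the other 0.07 (0.309). *Dnajc3*, a co-chaperone of BiP, fell against wt (-0.28 ± 0.04, adjusted p = 0.000136) and was -0.24 ± 0.12 against siScramble (adjusted p = 0.0188). *Creld2* fell in both (-0.25 ± 0.06 and -0.24 ± 0.06, adjusted p = 0.000449 and 0.00497). These 2 genes, together with *Hsp90b1*, were the ones among 89 further pathway genes with a promoter sequence to hold an ERSE in the 250 bases. Of 11 genes of translocation and N-glycosylation 3 were lower against wt, with *Dad1*, a subunit of the oligosaccharyltransferase, at -0.42 ± 0.14 (adjusted p = 0.000219). The glycoprotein folding cycle had 1 of 3 lower (*Mlec*, malectin, -0.30 ± 0.08, adjusted p = 0.00032), ER-associated degradation 1 of 13 (*Ube2j2*, a ubiquitin-conjugating enzyme, -0.21 ± 0.05, adjusted p = 0.000982), ER calcium 2 of 7 (*Itpr2*, a calcium release channel, at -0.44 ± 0.10 with a largest adjusted p of 0.000304 over its 3 probes) and further secretory targets of Xbp1 1 of 10 (*Kdelr1*, a retrieval receptor, -0.21 ± 0.09, adjusted p = 0.00298). Against siScramble, no gene of these 5 lists was called, and at an unadjusted p below 0.05 the lists had, in this order, 4, 1, 3, 2 and 2 lower genes, and 2 higher ones in ER-associated degradation. The 4 measured sensor genes of the response had no call in either comparison, with values between -0.14 and 0.00 against wt, and between -0.16 and -0.01 against siScramble, and at an unadjusted p below 0.05 there were 3 lower against wt and 1 against siScramble.

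The targets of Atf4 and Chop did not move in one direction. Of 25 measured, 6 were higher and 5 lower against wt, and none was higher and 2 lower against siScramble (at an unadjusted p below 0.05, 9 and 11 there). Over all named genes, 7.26% were higher and 9.46% lower against wt, and 1.67% and 1.31% against siScramble. *Atf3*, a stress-induced transcription factor, rose against wt (0.54 ± 0.09, adjusted p = 1.24e-05) and fell against siScramble (-0.29 ± 0.08, adjusted p = 0.00411), with a difference of 0.83 (adjusted p = 9.14e-06). *Vegfa*, an angiogenic growth factor, rose against wt (0.56 ± 0.09) and was 0.39 ± 0.23 against siScramble (larger adjusted p of its 2 probes 3.08e-05 and 0.0593). The remaining 4 that rose against wt, named after their values were seen, were *Atf5* (0.54 ± 0.08), *Bbc3* (0.50 ± 0.08), *Ppp1r15a* (0.46 ± 0.07), which encodes the phosphatase subunit Gadd34 that reverses eIF2α phosphorylation, and *Stc2* (0.35 ± 0.09). *Bcl2l11*, the gene of the pro-apoptotic protein Bim, fell in both comparisons (-0.43 ± 0.05 and -0.28 ± 0.06, adjusted p = 1.45e-05 and 0.00254). *Gdf15*, a stress-induced cytokine, fell against wt (-0.63 ± 0.11, adjusted p = 8.93e-06) and was -0.06 ± 0.23 against siScramble (adjusted p = 0.77). The other falls against wt, also named after their values were seen, were *Slc7a5* (-0.43 ± 0.16), *Nupr1* (-0.33 ± 0.03) and *Shmt2* (-0.18 ± 0.06).

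**Figure D4:**
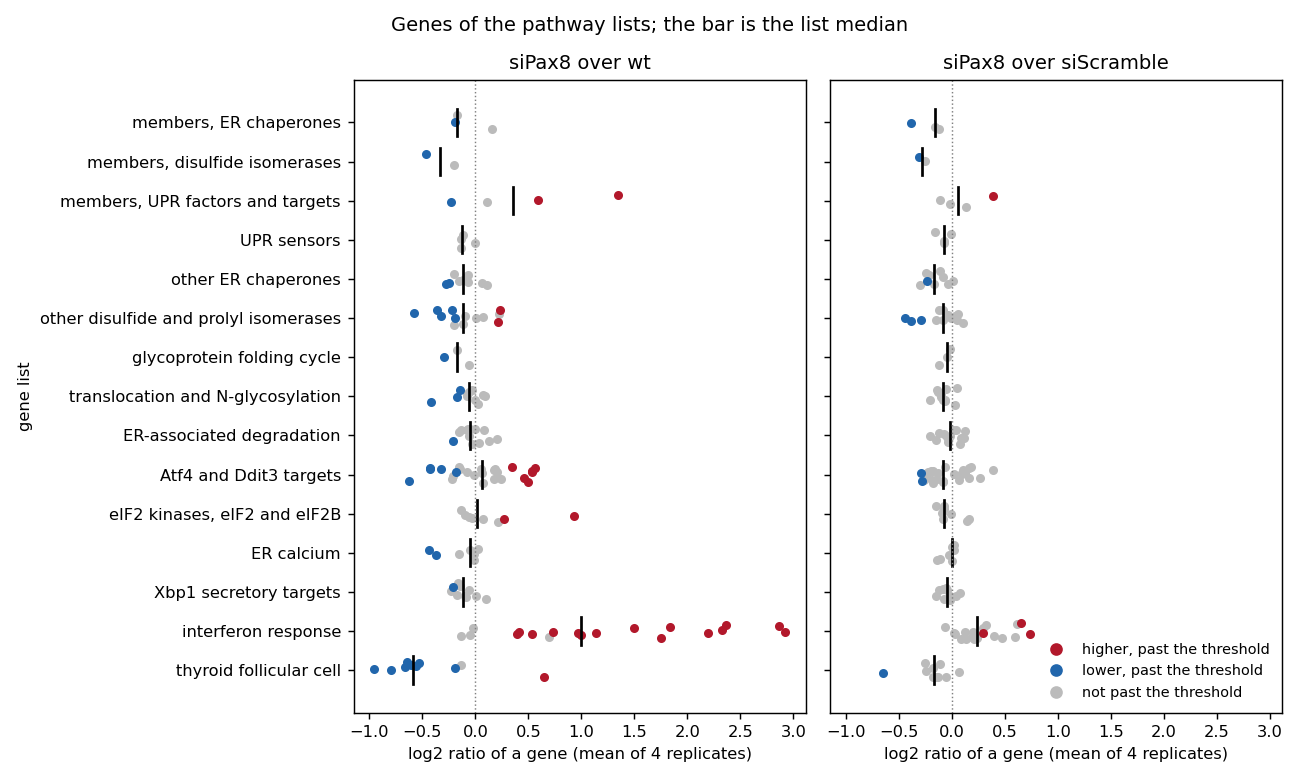
Log2 ratio of si*Pax8* over wt (left) and over siScramble (right) for each measured gene (point) of the lists on the vertical axis; red and blue points passed the threshold as higher and lower, grey ones did not, and the black bar is the median of the list. The folding lists have medians below 0 in both panels, the targets of Atf4 and Ddit3 spread to both sides against wt, and the interferon list has a median of 1.00 against wt and 0.24 against siScramble.

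Genes outside the ER were also higher against wt. The share of all named genes called higher was 7.26% against wt and 1.67% against siScramble. The list around eIF2α had 8 measured genes, 2 kinases, the α subunit itself and 5 subunits of its exchange factor eIF2B, of which the 2 kinases, *Eif2ak1* and *Eif2ak2*, were higher against wt and none was called against siScramble (at an unadjusted p below 0.05, 2 were above and 3 below 0). *Eif2ak2*, the kinase Pkr that binds double-stranded RNA and is itself induced by interferon, rose by 0.93 ± 0.13 against wt (larger adjusted p of its 2 probes 1.22e-05) and was 0.17 ± 0.06 against siScramble (0.0794), a difference that passed the threshold (0.00114). Of 19 measured interferon response genes 15 were higher against wt and 3 against siScramble, with list medians of 1.00 and 0.24. At an unadjusted p below 0.05, 15 were higher against siScramble too. *Oas1a*, an enzyme activated by double-stranded RNA, was at 2.93 ± 0.44 against wt (adjusted p = 9.27e-07) and 0.40 ± 0.29 against siScramble (adjusted p = 0.0561). The transcription factor gene *Irf7* rose by 2.36 ± 0.09 and 0.74 ± 0.12 (adjusted p = 7.42e-09 and 0.000334). *Gbp2* and *B2m* also rose in both comparisons. The part of these genes, and of transfection as such, in the values of *Ddit3* and *Trib3* was not tested.

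Thyroglobulin is the main client of this machinery in thyroid cells, and its gene *Tg* fell in both comparisons. It measured -1.14, -1.06, -0.83 and -0.79 against wt (-0.96 ± 0.17, or 51.6% of the control, adjusted p = 4.62e-06) and -0.69, -0.68, -0.75 and -0.47 against siScramble (-0.65 ± 0.12, or 63.9%, adjusted p = 0.000528). Of the 10 measured thyroid genes 8 were lower and 1 higher (*Slc26a4*, the iodide transporter pendrin, 0.64 ± 0.06, adjusted p = 1.87e-06) against wt, and *Tg* was the only one called against siScramble, where 8 were lower at an unadjusted p below 0.05. For this and the next lists, 9.46% of all named genes were lower and 7.26% higher against wt, and 1.31% and 1.67% against siScramble. Of 9 heat shock genes of the cytosol and the mitochondrion, 1 was lower against wt by all of its probes (*Hspa4*, -0.29 ± 0.14, larger adjusted p of its 2 probes 0.00402), and 3 were higher at an unadjusted p below 0.05. The probes of the Hsp90 genes did not agree, which was noted after their values were seen: 2 of the 4 *Hsp90aa1* probes were higher against wt (0.56 and 0.51, adjusted p = 9.98e-05 and 0.000146) and the others were not (-0.03 and -0.13, adjusted p = 0.624 and 0.144), and 1 of the 2 *Hsp90ab1* probes was higher (0.40, adjusted p = 2.03e-05). Against siScramble no gene of this list was called by all of its probes, and 2 were lower at an unadjusted p below 0.05. The *Hsp90aa1* probe at -0.03 against wt (A_44_P135339) was called lower against siScramble (-0.27, adjusted p = 0.00391). Of 3 measured leukocyte markers 1, *Cd68*, a lysosomal protein gene, was higher against wt (0.30 ± 0.12, adjusted p = 0.000797). No C cell gene was called by any probe. The *Calca* probe that was above background on all 16 arrays was -0.15 against wt (adjusted p = 0.00788).

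**Figure D5:**
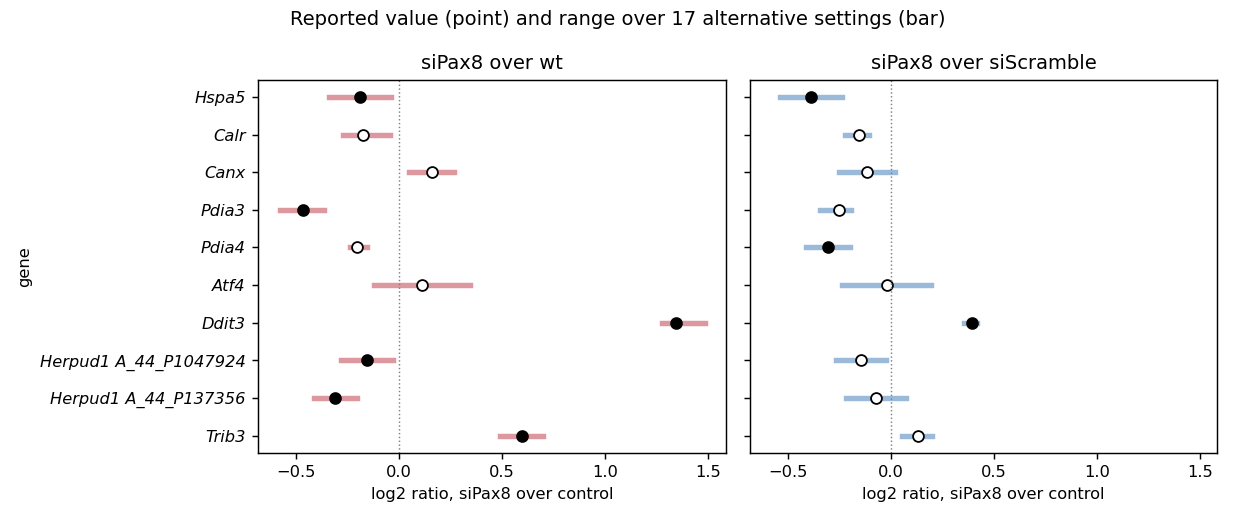
Reported log2 ratio of si*Pax8* over wt (left) and over siScramble (right) for each probe (point, filled where it passed the threshold) and the range over 17 alternative settings (bar), some of which cannot move the value. The ranges of *Ddit3* and *Trib3* stay above 0 and those of *Hspa5*, *Pdia3* and *Pdia4* below it in both panels, whereas that of *Atf4* spans 0 in both.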

How the data were processed

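RNA of 16 competitive hybridizations was analysed, 8 for each comparison, and the condition, dye and replicate of each channel were taken from the sample labels. The authors deposited, per array, fluorescence intensities of each spot (mean signal and median local background in Cy3 and Cy5, not normalized, Feature Extraction 10.1.1.1, scanned at 5 µm per the file headers). A further deposited table, of the whole series, holds normalized log2 ratios by array. Its column medians lay between -0.000112 and 0.0068, and its columns correlated between -0.999 and -0.992 with the ratios computed here, so it holds control over si*Pax8*. The base of its logarithm was taken from the like size of the values.

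Background was corrected with normexp (offset 50), followed by loess within arrays (control and outlier spots with weight 0), removal of 1639 control spots of 45018, and quantile normalization between channels, in R 4.3.3 with limma 3.58.1 and statmod 1.5.0. Outlier spots were left out, spots of a probe averaged, and the dye-swapped arrays of a replicate averaged, being repeats of the same RNA. Their deviations from the group means correlated by 0.12 to 0.58, although replicate 2 against wt correlated more with another number (0.2), and the consensus correlation within replicates over the 8 arrays was -0.124 against wt and -0.115 against siScramble. Each comparison was fitted by lmFit and eBayes to 4 values per probe, and the difference between comparisons to the 8 values as separate groups. The p-values were adjusted by Benjamini-Hochberg over 41012 probes. Intervals are 95% confidence intervals of the fit.

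Probes were named through RefSeq accessions (10768 probes, 8899 genes). The genes named are all member probes, *Pax8*, *Tg*, each list gene past the threshold in both comparisons in 1 direction, and the largest called rise and fall of each list in each comparison. Outside this rule, *Dnajb9*, *Eif2ak1*, *Calca*, the Hsp90 probes and the remaining called targets of Atf4 and Chop were named with their values known. *Hsp90b1* was named for its ERSE, and *Col1a2*, *Csf1r* and *Chga* for their detection above background. The members and lists were chosen with earlier results of these data known. Promoter sequences are those of RefSeq for GRCr8, matched by symbol. Of the 4 slides, each carried 4 arrays with both comparisons, and scanning took 1 day. The number of arrays limits the precision, and the labels do not say how the biological replicates were obtained. Alternatives were Agilent's processed signals, loess only, an offset of 16, the deposited table, a filter on dim probes, each dye orientation, leaving out each replicate, blocks and a term for the dye, both comparisons in 1 fit, an adjusted p of 0.05, and further probe names.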

Additional observations from a re-analysis of the deposited data

Results flagged for a closer look

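*Ddit3* (A_44_P445344) was singled out because its response differed between the comparisons by a test of the difference itself: the log2 ratio of si*Pax8* over wt exceeded that over siScramble by 0.9525 (95% confidence interval 0.79 to 1.11, adjusted p = 2.55e-05, limma with Benjamini-Hochberg adjustment). The ratio was above 0 in 4 of 4 replicates of each comparison. If the same si*Pax8* RNA was hybridized in both, this difference equals the level of siScramble over wt cells. Without any 1 replicate the difference lay between 0.92 and 1.01, and it was 0.94 with si*Pax8* in Cy5 and 0.97 with it in Cy3. No replicate stood apart by Dixon's test at its 95% value in the 20 groups of 4 replicates of the member probes.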

How the results depend on the processing

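No value changed sign among the calls. *Ddit3* and *Trib3* against wt were called in all 17 settings tried, with ranges of 1.28 to 1.48 and 0.49 to 0.70. The 17 include the adjusted p of 0.05 and the further probe names, which reuse the reported fit and cannot lose a call. *Hspa5* against siScramble lost its call in 3 of 17 and against wt in 8, *Pdia4* against siScramble in 7, *Pdia3* against wt in 4, and the *Herpud1* probes against wt in 11 (A_44_P1047924) and 4 (A_44_P137356). With Agilent's processed signals, 0 member probes were lower against wt and 0 were higher and 0 lower against siScramble (limma, with 8 and 5 of the 10 at an unadjusted p below 0.05, and 4.28% and 0.0707% of all probes called), and of the other pathway genes 6 were higher and 3 lower against wt and 0 lower against siScramble. With loess only, 2 member probes were lower against wt and 1 against siScramble (15.6% and 1.46% of all probes called), and 3 pathway genes were lower against siScramble. With an offset of 16, 2 member probes were lower against wt (14% of all probes called). With si*Pax8* in Cy5 alone, 0 member probes were higher and 0 lower against siScramble (5 at an unadjusted p below 0.05, 0.524% of all probes called). In Cy3 alone 1 member probe was lower against wt and 5 against siScramble, where 8.51% and 8.74% of all probes were called. At an adjusted p of 0.05, 19 pathway genes were higher and 37 lower against wt and 2 and 22 against siScramble, and 3 member probes differed between comparisons. At that threshold 26.2% of all probes were called against wt, 8.96% against siScramble and 10.4% for the difference. Leaving out each replicate in turn gave 0 to 3 member probes lower against wt, 0 to 1 higher and 0 to 2 lower against siScramble, 1 to 2 differing between comparisons, and 13 to 20 and 0 to 2 pathway genes lower against wt and siScramble. Over all probes these fits called 8.23% to 17% against wt, 0.29% to 1% against siScramble and 0.897% to 2.59% for the difference. With the replicate block over the 8 arrays, 2 member probes were lower against wt (16.3% of all probes called). With the replicate block across the comparisons, 2 member probes and 5.63% of all probes differed, a pairing that the arrays did not bear out for replicate 3 (correlation 0.045). The causes were not tested.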
